A study of Mus musculus with 6 samples.

Results

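The IL-1 family, IL-6 and the colony-stimulating factors are secreted proteins that carry inflammatory signals between tumor cells, immune cells and stroma. Their transcripts were compared between mouse thyroid tumors driven by YAP alone and tumors driven by YAP together with mutant Braf. The genes were taken by symbol from a list of names, drawn up with earlier results of these data known, and were the IL-1 family members Il1a, Il1b, Il1rn, Il18 and Il33, the IL-6 family members Il6 and Lif, and the colony-stimulating factors Csf1, Csf2 and Csf3. These 10 genes are 10 of the 35027 genes in the expression table, and each of the 10 had reads in all 6 libraries.

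Thyroid tumors were dissociated, Kate-positive cells were sorted, and RNA-seq libraries were made from about 20000 cells each, 3 per genotype. Kate is a red fluorescent protein expressed from the RIK allele together with the doxycycline (dox)-controlled activator rtTA, and in all 6 libraries this allele was opened by a Cre recombinase made in thyroid follicular cells. All mice also carried tetO-YAPS127A, a dox-inducible transgene for a form of YAP that stays in the nucleus, and received dox chow from 4 weeks of age. YAP is the transcriptional coactivator held in check by the Hippo pathway, and its partners on DNA are the TEAD factors. The YAP group (replicates 1, 2 and 3) had no further driver, and the BrafYAP group (replicates 1, 2 and 6) also expressed a mutant Braf kinase from the endogenous gene (LSL-Braf), which activates MAPK signaling. By the labels each YAP library pooled 3 tumors and each BrafYAP library held 1 tumor, so pooling and genotype cannot be told apart. The labels give no batch. Depth was 26.2 to 36.9 M estimated reads per library.

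IL-1α and IL-1β signal through the same receptor, IL1R1, and switch on NF-κB in responding cells. IL-1 receptor antagonist, encoded by Il1rn, occupies that receptor without activating it. IL-1β and IL-18 are made as precursors and are cut by caspase-1 in the inflammasome, so their mRNA levels do not show how much active cytokine was released. IL-33 is a nuclear alarmin that acts through ST2 (Il1rl1) when cells are damaged. IL-6 and LIF signal through gp130 (Il6st) and STAT3. M-CSF (Csf1) sustains macrophages, GM-CSF (Csf2) acts on macrophages, dendritic cells and granulocytes, and G-CSF (Csf3) drives the production of neutrophils. Many of these mRNAs are short-lived, and their genes are controlled by NF-κB, AP-1 and C/EBP factors.

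The regions just upstream of 4 of these genes are shown because their values are the ones the comparisons below turn on. Il1b and Il1rn are the agonist and antagonist pair, and Il33 and Il6 were both highest in 1 BrafYAP library. Each line is the 250 bases before the RefSeq transcription start on GRCm38.p6, read 5′ to 3′ on the strand of the gene, and capitals mark a motif match. The windows are chr2:129371140-129371389 (minus strand) for Il1b and chr2:24336610-24336859 (plus strand, 1 of 3 RefSeq starts of the gene) for Il1rn. Those of the other genes are chr19:29924863-29925112 (plus strand, 1 of 2 RefSeq starts) for Il33 and chr5:30012864-30013113 (plus strand) for Il6.
Il1b: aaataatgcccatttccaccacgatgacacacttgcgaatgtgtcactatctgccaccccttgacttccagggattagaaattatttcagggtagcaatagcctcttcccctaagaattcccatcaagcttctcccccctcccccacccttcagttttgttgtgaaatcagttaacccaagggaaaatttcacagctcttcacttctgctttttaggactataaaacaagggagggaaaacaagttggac
Il1rn: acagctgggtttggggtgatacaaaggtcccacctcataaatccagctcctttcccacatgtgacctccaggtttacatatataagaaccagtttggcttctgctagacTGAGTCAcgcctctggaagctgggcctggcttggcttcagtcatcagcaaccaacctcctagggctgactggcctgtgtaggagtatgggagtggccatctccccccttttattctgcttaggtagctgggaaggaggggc
Il33: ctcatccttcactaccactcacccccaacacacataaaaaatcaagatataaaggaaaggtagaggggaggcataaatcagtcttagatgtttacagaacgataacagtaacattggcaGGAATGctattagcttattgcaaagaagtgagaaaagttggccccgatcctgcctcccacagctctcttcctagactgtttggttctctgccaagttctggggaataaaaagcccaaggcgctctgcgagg
Il6: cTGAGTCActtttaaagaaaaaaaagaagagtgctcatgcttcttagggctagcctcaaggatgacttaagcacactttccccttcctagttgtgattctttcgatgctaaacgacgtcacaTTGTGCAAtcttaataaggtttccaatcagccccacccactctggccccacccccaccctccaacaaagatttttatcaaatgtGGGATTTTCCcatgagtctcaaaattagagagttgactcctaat

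The motifs searched on both strands were an NF-κB motif, AP-1 (TGANTCA), C/EBP (TTGCNNAA), CRE (TGACGTCA) and TEAD (GGAATG), and no matches overlapped in these 4 windows. The Il6 window held AP-1, C/EBP and NF-κB matches that started 249, 128 and 44 bases before the start site. The Il1rn window held an AP-1 match 141 bases before the start and the Il33 window a TEAD match 131 bases before it. The Il1b window held none of the 5 motifs, which says only that these letters are not in this stretch. Of the 9 members with a RefSeq entry (Csf3 has none), 4 held an AP-1 match (Il1a, Il1rn, Il6 and Lif), 3 an NF-κB match (Csf1, Il6 and Lif), 2 a C/EBP match (Csf2 and Il6), 2 a TEAD match (Csf2 and Il33) and 0 a CRE match. Over the 32536 windows of all genes, the shares with a match were 6.73% for AP-1, 7.28% for NF-κB, 9.57% for C/EBP, 12.6% for TEAD and 1.56% for CRE. For 7 of the 9 windows, the bases after the start were found in a transcript of the gene. The exceptions were the Csf2 and Il18 windows, 232 and 127 bases from the annotated (GENCODE) start. The Csf2 matches may therefore lie away from the annotated start of that gene. A match is a run of letters and was not tested as a binding site.

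Before the comparison, the levels of the 10 transcripts were set side by side within libraries. For this the deposited values, which appear divided by the whole genomic span of each gene, were recomputed as TPM over the exonic length (exonic TPM). Genes can thus be compared per length of mRNA. Il1b had the highest mean of the 10 in both genotypes, at 587 ± 357 exonic TPM in YAP and 442 ± 137 in BrafYAP (SD, n = 3). It lay between the 98.2 and 99.6 percentiles of all genes in the 6 libraries. Il1rn (234 ± 84.6 in YAP and 131 ± 44.4 in BrafYAP), Csf2 (145 ± 105 and 312 ± 181), Il1a (93.1 ± 50.3 and 55.0 ± 31.9) and Csf1 (82.1 ± 30.7 and 70.2 ± 48.2) formed the next tier on the same scale. Lif followed at 36.5 ± 14.7 and 29.9 ± 14.4 exonic TPM. Il18 (10.6 ± 4.82 and 6.01 ± 1.67) and Csf3 (6.70 ± 4.11 and 4.16 ± 1.71) were low. Il6 (1.24 ± 0.311 and 11.02 ± 15.4) and Il33 (0.744 ± 0.325 and 6.83 ± 9.03) were lowest in YAP, and their BrafYAP means rest on replicate 6.

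The order was not resolved at every step. In YAP, neighbours in the order of means had overlapping libraries except Lif above Il18 and Csf3 above Il6. In BrafYAP all neighbours overlapped. Within single libraries Il1b was above Il1rn in 6 of 6 libraries and above Il1a in 6 of 6. The plot of levels by library shows this spread.

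**Figure D1:**
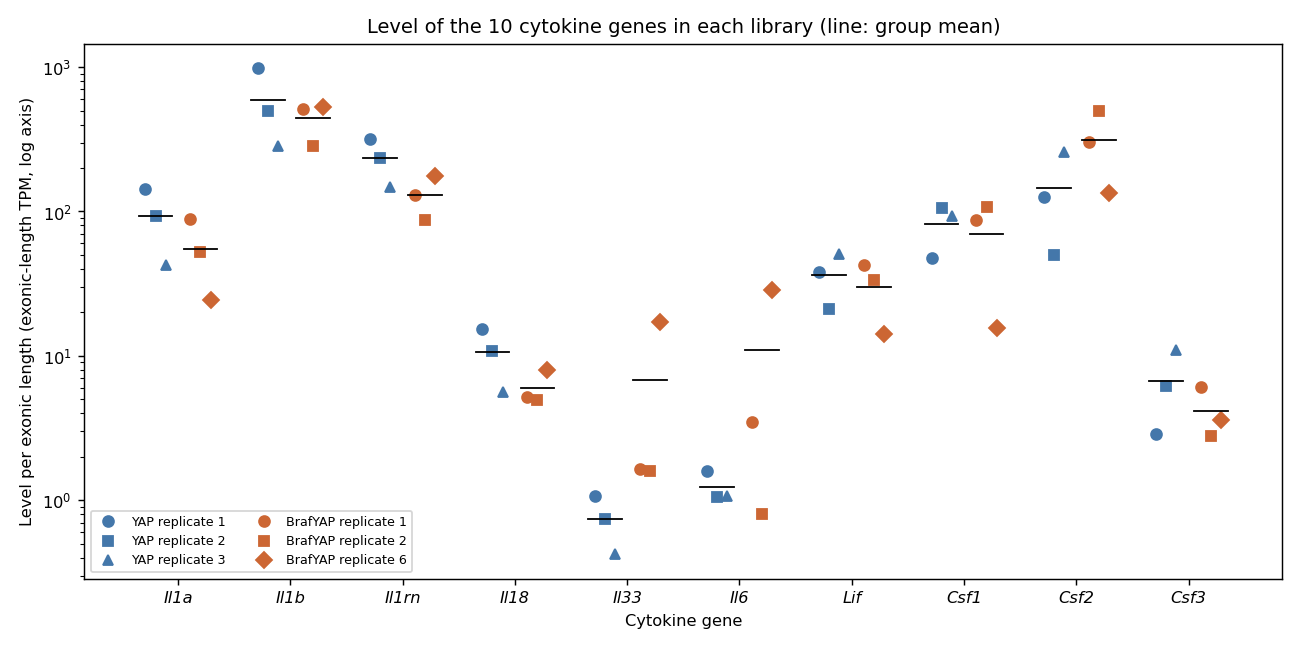
Each point is 1 library, blue for YAP and orange for BrafYAP, with the replicate given by its shape, and the line is the group mean; the vertical axis is the level in exonic-length TPM on a log axis. Il1b, Il1rn and Csf2 are the most abundant, the groups overlap for every gene but Il33, and BrafYAP replicate 6 (diamond) is far above the other libraries for Il33 and Il6 and lowest for Il1a, Lif and Csf1.

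None of the 10 genes differed between the genotypes past the threshold. On the deposited values, 7 members had a mean of at least 1 and could be tested, and 0 of 7 passed an adjusted p of 0.05 (limma, Benjamini-Hochberg over 7319 genes), where the background was 0.246% of all genes (0.082% higher and 0.164% lower). Il18, Il33 and Il6 had lower means and were read from the same test on scaled reads, in which the division by gene length is undone and the authors' scaling between libraries is kept. There, 0 of 10 members passed, and the background was 0% of 16834 genes. At an unadjusted p under 0.05 the count was also 0 of 7 and 0 of 10, against 19.9% of all genes on deposited values (10.7% higher and 9.17% lower) and 20.2% on scaled reads (9.68% higher and 10.5% lower), and voom on the estimated reads passed 0 members. The groups did not overlap for 1 of the 10 genes, Il33, which was higher in BrafYAP, while groups did not overlap for 28.2% of genes on deposited values (11.8% higher and 16.4% lower) and for 28.7% on scaled reads (11.6% higher and 17.1% lower). Fold changes below are BrafYAP over YAP, and 3 members had a positive and 7 a negative value, with a median of −0.34 (log2) beside −0.06 for all genes on deposited values and −0.12 on scaled reads. The 95% interval reached a 2-fold difference in at least one direction for 10 of 10 genes (lower in BrafYAP for 8 and higher for 3, Il6 counting under both), so differences of that size were not resolved.

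**Figure D2:**
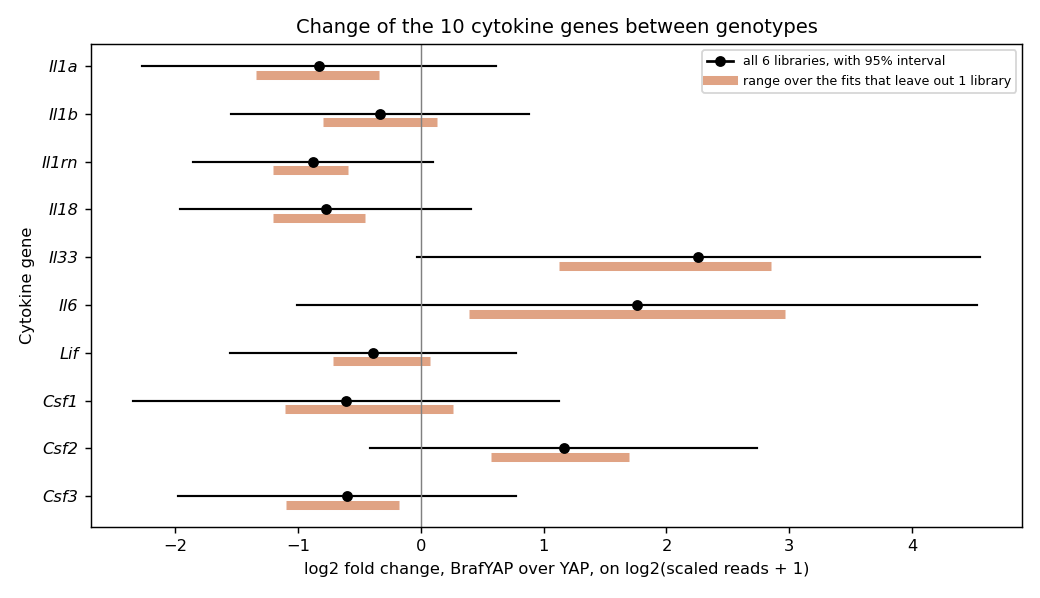
Points are log2 fold changes, BrafYAP over YAP, of the 10 cytokine genes in the fit on log2(scaled reads + 1), black lines are 95% intervals, and orange bars are the range over the 6 fits that each leave out 1 library. Every interval includes 0, and Il33, Il6 and Csf2 are the genes with a positive fold change.

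Il1a (chr2:129299610-129309972, minus strand, mm10), which encodes the agonist IL-1α, had deposited values, in TPM apparently divided by genomic span, of 10.5, 7.09 and 2.97 in YAP replicates 1, 2 and 3 and of 6.24, 3.66 and 1.73 in BrafYAP replicates 1, 2 and 6. YAP replicate 1 was highest and BrafYAP replicate 6 lowest, and the other libraries of the groups interleaved. Between genotypes the log2 fold change was −0.67 (SE 0.50, 95% interval −1.84 to 0.50, adjusted p = 0.477). Leaving out each library in turn gave −1.10 to −0.31. Its locus is shared with the antisense transcript Gm14023, which had 11 to 118 estimated reads against 609 to 3201 for Il1a, and as no strand was stated for the counting, reads of such pairs cannot be told apart.

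Il1b (chr2:129364570-129371139, minus strand), the most abundant of the 10, had deposited values of 109.9, 57.5 and 30.2 in YAP and 55.7, 29.96 and 57.4 in BrafYAP. The lowest values of both groups were alike, and YAP replicate 1 was well above the other 5 libraries. The log2 fold change was −0.33 (SE 0.51, 95% interval −1.53 to 0.87, adjusted p = 0.742), and without YAP replicate 1 it was 0.13. Il1b and Il1a kept a narrow proportion in 5 libraries, where Il1b was 5.32 to 6.84 times Il1a in exonic TPM. BrafYAP replicate 6 departed from it at 21.7 times, with the least Il1a of any library. The antisense transcript Il1bos overlaps Il1b and had 0 to 47 estimated reads, against 5803 to 21167 for Il1b.

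Il1rn (chr2:24336853-24351494, plus strand), the receptor antagonist, had deposited values of 46.4, 35.4 and 20.5 in YAP and 18.3, 11.9 and 24.8 in BrafYAP. BrafYAP replicates 1 and 2 were below all YAP libraries, and only BrafYAP replicate 6, above YAP replicate 3, made the groups overlap. For this gene the log2 fold change was −0.84 (SE 0.40, 95% interval −1.78 to 0.10, adjusted p = 0.290), the most negative of the 7 members read on deposited values. Without BrafYAP replicate 6 it was −1.08 (adjusted p = 0.244). Antagonist to agonist proportions were also given as a description. Il1rn was 0.324, 0.473 and 0.522 times Il1b in exonic TPM in YAP and 0.253, 0.305 and 0.332 times in BrafYAP, so the groups overlapped only through YAP replicate 1 and BrafYAP replicate 6.

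Il18 (chr9:50554827-50581840, plus strand) encodes an inducer of interferon-γ in lymphocytes. It was sparse, with 183, 135 and 63.9 scaled reads in YAP and 59.8, 55.7 and 92.3 in BrafYAP. BrafYAP replicate 6 again was the library that reached into the YAP range. On scaled reads the log2 fold change was −0.78 (SE 0.50, 95% interval −1.96 to 0.41, adjusted p = 0.416), and it stayed negative in all 6 fits that left out a library (−1.20 to −0.45). The opposite-strand genes Bco2 and Tex12 lie across its locus and had 2 to 36 and 0 estimated reads.

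These 4 genes, Il1a, Il1b, Il1rn and Il18, all had their highest value in YAP replicate 1. Without that library their log2 fold changes were −0.33, 0.13, −0.59 and −0.45. The summed exonic TPM of 12 macrophage markers was 15118 to 48973 in YAP and 4254 to 14880 in BrafYAP, with YAP replicate 1 highest and BrafYAP replicate 6 lowest. Most of the sum was Lyz2, at 38889 of 48973 exonic TPM in YAP replicate 1. Of the 12 markers, 6 were highest in YAP replicate 1 (Cd68, Cd14, Lyz2, Itgam, Mrc1 and Siglec1), 5 in YAP replicate 2 (Adgre1, C1qa, C1qb, C1qc and Fcgr1) and 1, Marco, in BrafYAP replicate 6. Of the 12, 10 had an unadjusted p under 0.05, all lower in BrafYAP, among them the complement genes C1qa, C1qb and C1qc with log2 fold changes of −2.85, −2.82 and −2.77 (adjusted p = 0.0943, 0.0826 and 0.0946), while Marco was at 0 reads in 4 of 6 libraries. Without BrafYAP replicate 6, 8 of 11 tested markers had an unadjusted p under 0.05, all lower. With all libraries, 9.17% of all genes on deposited values and 10.5% on scaled reads were lower at that p. Without BrafYAP replicate 6 these shares were 8.14% and 11.5%. Pan-leukocyte markers summed to 1177 to 2499 in YAP and 486 to 1211 in BrafYAP. Lyz2, the macrophage lysozyme, had 50294 to 579233 estimated reads, although the cells were sorted on a reporter that depends on a Cre of thyroid follicular cells. The part of these markers in the values of the IL-1 genes was not tested, and in bulk RNA fewer cells of a type and less RNA per cell cannot be told apart.

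Il33 (chr19:29925114-29960718, plus strand), the nuclear alarmin, was the only member whose groups did not overlap. Scaled reads were 36.0, 25.7 and 13.4 in YAP and 53.2, 50.2 and 562 in BrafYAP. BrafYAP replicates 1 and 2 were just above the highest YAP library, and replicate 6 was far above both. The log2 fold change on scaled reads was 2.26 (SE 0.98, 95% interval −0.03 to 4.55, adjusted p = 0.252). Without BrafYAP replicate 6 it was 1.12 (adjusted p = 0.306), still positive. Counts of this size in YAP, 13 to 35 estimated reads per library, leave the YAP level itself loosely fixed. Its receptor gene Il1rl1 had a log2 fold change of −1.23 (adjusted p = 0.246) and 60 to 268 estimated reads.

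Il6 (chr5:30013114-30019981, plus strand) had scaled reads of 45.2, 30.6 and 28.8 in YAP and of 95.3, 21.2 and 788 in BrafYAP. BrafYAP replicate 2 was the lowest of all 6 libraries and replicate 6 the highest. The log2 fold change was 1.76 (SE 1.18, 95% interval −1.01 to 4.53, adjusted p = 0.429), and without BrafYAP replicate 6 it was 0.39 (adjusted p = 0.773). The 3 YAP libraries were close together for this gene, and in BrafYAP the lowest and highest libraries lay far apart. Each YAP library pooled 3 tumors and each BrafYAP library held 1, so these spreads cannot be compared between genotypes.

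Il33 and Il6 were highest in BrafYAP replicate 6, and 4 IL-1 family genes in YAP replicate 1. Over the 7319 genes tested on deposited values, these 2 libraries had the lowest mean correlations with the other 5. Across genes, which are not independent replicates, these means were 0.825 and 0.833, against 0.895 to 0.908 for the other 4. Within its own group, YAP replicate 1 had r = 0.874 with replicate 2 and 0.935 with replicate 3, beside 0.942 between replicates 2 and 3. In BrafYAP replicate 6 the fibroblast markers Lum and Pdgfra had 742 and 533 estimated reads, against at most 156 and 88 elsewhere, and the endothelial markers Tie1 and Emcn had 892 and 369, against at most 53 and 23. Other fibroblast genes did the opposite, since the collagen genes Col1a1 and Col1a2 were lowest there, at 11.3 and 17.6 exonic TPM against 23.1 to 82.6 and 68.6 to 128 in the other libraries. The summed lists were less distinct, since 7 fibroblast markers gave 143 exonic TPM in this library within a range of 133 to 284 in the others, and 6 endothelial markers gave 38.8 beside 32.8 in YAP replicate 2. Thyroid genes were also unlike those of the other BrafYAP libraries. Thyroglobulin (Tg) had 22121 estimated reads in replicate 6 and 116 and 66 in replicates 1 and 2, and Tshr was at 0 in replicates 1 and 2. The lineage factor Pax8 was present in all 6 libraries with 5844 to 14234 reads. The part of these differences in Il33 and Il6 was not tested.

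Lif (chr11:4257557-4272514, plus strand), the other gp130 cytokine, did not follow Il6. Its deposited values were 4.28, 2.44 and 5.36 in YAP and 4.59, 3.52 and 1.53 in BrafYAP. All but the lowest BrafYAP library lay within the YAP range, and that library was replicate 6, the one with the most Il6. Lif had a log2 fold change of −0.28 (SE 0.37, 95% interval −1.16 to 0.60, adjusted p = 0.692), and 0.05 without BrafYAP replicate 6.

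The colony-stimulating factors showed no common direction. Csf2 (chr11:54247271-54249667, minus strand), which encodes GM-CSF, had the highest fold change among the 7 members read on deposited values. Its values were 16.3, 6.62 and 31.5 in YAP and 37.9, 60.1 and 16.8 in BrafYAP. BrafYAP replicates 1 and 2 were above all YAP libraries, whereas BrafYAP replicate 6 was close to YAP replicate 1. Csf2 had a log2 fold change of 1.10 (SE 0.64, 95% interval −0.41 to 2.61, adjusted p = 0.381), positive in each of the 6 fits that left out a library (0.56 without YAP replicate 2 to 1.60 without YAP replicate 3). Without BrafYAP replicate 6 it was 1.59 (95% interval 0.10 to 3.07, adjusted p = 0.250). In that fit, Csf2 and Il1rn had an unadjusted p under 0.05 in limma, as did 18.5% of the 7258 genes it tested. The antisense transcript Gm12223 overlaps Csf2 and had 4 to 29 estimated reads, against 391 to 5533 for Csf2.

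Csf1 (chr3:107741048-107760469, minus strand), which encodes M-CSF, had values of 4.99, 11.5 and 9.24 in YAP and of 8.90, 10.6 and 1.59 in BrafYAP. BrafYAP replicates 1 and 2 lay within the YAP range, and replicate 6 was lower than any other library. Csf1 had a log2 fold change of −0.45 (SE 0.60, 95% interval −1.88 to 0.97, adjusted p = 0.695), and 0.23 without BrafYAP replicate 6. Csf2 and Csf1, given as a proportion in exonic TPM, separated the groups as a description without a test. Csf2 was 2.66, 0.469 and 2.78 times Csf1 in YAP and 3.47, 4.63 and 8.60 times in BrafYAP. In replicates 1 and 2 of BrafYAP the higher proportion came with more Csf2, and in replicate 6 with little Csf1.

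Csf3 (chr11:98701263-98703629, plus strand), which encodes G-CSF, was low throughout, at 0.663, 1.47 and 2.41 in YAP and 1.35, 0.605 and 0.809 in BrafYAP (46 to 167 estimated reads). YAP replicate 3 was highest, and the BrafYAP libraries lay within or just below the YAP range. Csf3 had a log2 fold change of −0.35 (SE 0.30, 95% interval −1.05 to 0.36, adjusted p = 0.540). Neutrophil RNA was scarce in both groups, since the marker Ly6g had 0 reads in all 6 libraries and 8 neutrophil markers summed to 10.9 to 15.0 exonic TPM in YAP and 5.76 to 12.5 in BrafYAP.

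**Figure D3:**
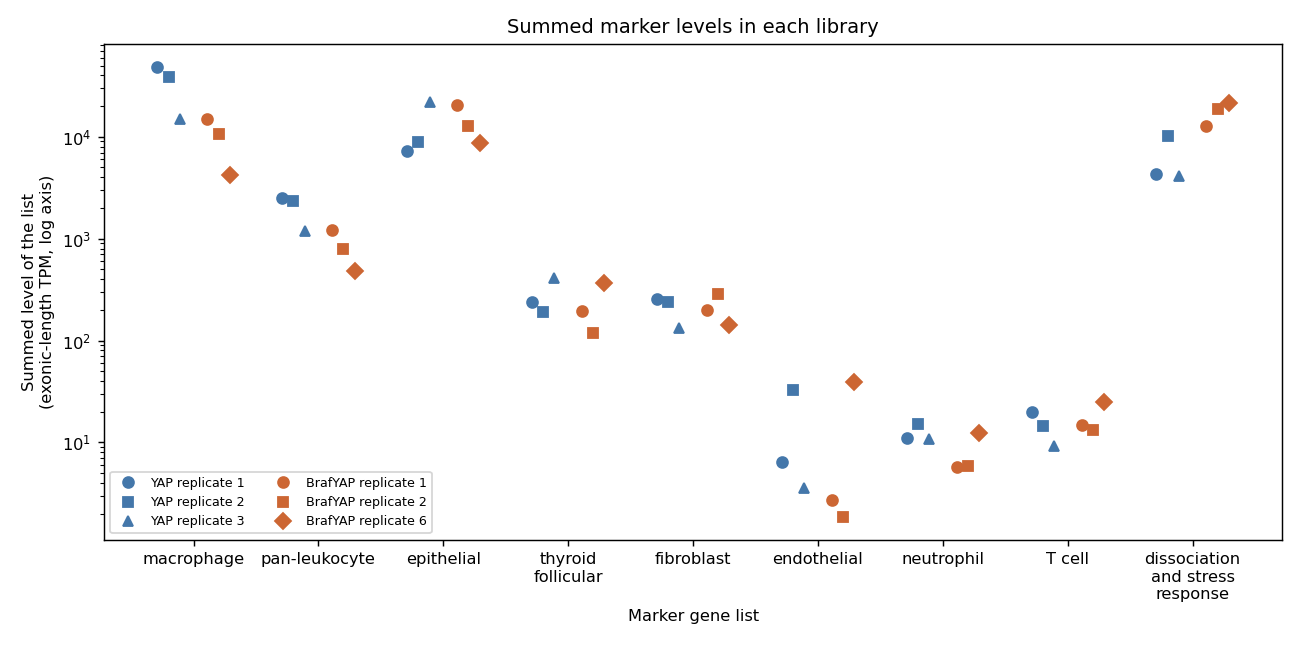
Each point is 1 library, and the vertical axis is the summed level of a marker list in exonic-length TPM on a log axis. Macrophage sums are higher in all 3 YAP libraries (15118 to 48973) than in the BrafYAP libraries (4254 to 14880), and the sums of dissociation and stress genes are higher in BrafYAP (12856 to 21325) than in YAP (4104 to 10081).

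The genes around these cytokines were described from 6 lists (receptors and decoys, other ligands, inflammasome, adaptors and kinases, mRNA decay, and response genes) of 73 genes. Of these, 63 could be tested and 0 passed the threshold in limma. At an unadjusted p under 0.05 there were 21 (33.3%), 8 higher and 13 lower in BrafYAP. The backgrounds were 19.9% on deposited values (10.7% higher, 9.17% lower) and 20.2% on scaled reads (9.68% higher, 10.5% lower). The groups did not overlap for 7 of the 63 genes in the higher and 13 in the lower direction. Over all genes they did not overlap for 28.2% on deposited values (11.8% higher, 16.4% lower) and 28.7% on scaled reads (11.6% higher, 17.1% lower).

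Among 15 receptors and decoys, 4 had an unadjusted p under 0.05, all lower in BrafYAP, and the median log2 fold change was −0.53. Csf3r, the G-CSF receptor and also in the neutrophil marker list, had 284, 460 and 104 estimated reads in YAP and 54, 5 and 23 in BrafYAP (log2 fold change −3.81, SE 1.00, adjusted p = 0.117). Csf1r, the M-CSF receptor and a macrophage gene, had 23830, 36547 and 11184 reads in YAP and 9158, 8258 and 3116 in BrafYAP (log2 fold change −1.85, SE 0.57, adjusted p = 0.147). The groups did not overlap for 4 of the 15 genes, all lower in BrafYAP, with Csf3r and Csf1r among them. For the ligands Csf3 and Csf1 the groups overlapped. Il18bp, a soluble decoy for IL-18, had 914, 632 and 423 reads in YAP and 53, 75 and 427 in BrafYAP (log2 fold change −1.70, SE 0.47, adjusted p = 0.123). The IL-1 receptor Il1r1 had 1469 to 2481 reads, with a log2 fold change of −0.27 (adjusted p = 0.690), and Il6ra, the IL-6 receptor, had only 31 to 57 reads in any library. The common subunit gp130 (Il6st) was well covered at 3428 to 8856 reads.

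The inflammasome list had a median log2 fold change of −1.19, and 5 of its 7 genes had an unadjusted p under 0.05, all lower. Casp4, an inflammatory caspase that senses lipopolysaccharide, had 923, 841 and 564 reads in YAP and 169, 123 and 237 in BrafYAP (log2 fold change −2.40, SE 0.42, adjusted p = 0.0794). Casp1, which cuts the IL-1β and IL-18 precursors, had 361, 294 and 151 reads in YAP and 97, 57 and 103 in BrafYAP (log2 fold change −1.84, SE 0.52, adjusted p = 0.131). Nlrp3, a sensor that assembles the inflammasome, had a log2 fold change of −1.16 (adjusted p = 0.140). The groups did not overlap for these 3 genes, unlike Il1b and Il18, and macrophage markers were lower in the same libraries, whose part in these values was not tested.

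Of 18 other ligands, 11 could be tested. Clcf1, another gp130 cytokine, had 854 to 2229 reads in YAP and 521 to 3465 in BrafYAP, with a log2 fold change of 0.17 (adjusted p = 0.902). Cntf, a neurotrophic gp130 cytokine, had 440, 190 and 358 reads in YAP and 88, 140 and 1 in BrafYAP (log2 fold change −1.77, adjusted p = 0.103). Il27 had at most 27 reads in any library (log2 fold change −2.97, adjusted p = 0.158). The groups did not overlap for Cntf and Il27, both lower in BrafYAP at an unadjusted p under 0.05. They also did not overlap for Ctf1, which was higher in BrafYAP (8 to 33 estimated reads, log2 fold change 1.16, adjusted p = 0.328). The IL-36 genes appear in the table under their older Il1f names, and of these Il1f8 had 0 reads in all libraries. Il1f10, which is not an IL-36 gene, also had 0 reads in all libraries.

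In the response list, 4 of the 10 genes tested had an unadjusted p under 0.05, all higher in BrafYAP, and the median was 0.68. Cebpd, the C/EBPδ transcription factor induced by IL-6 and IL-1, had 46, 99 and 68 reads in YAP and 453, 1104 and 2752 in BrafYAP (log2 fold change 2.604, SE 0.51, adjusted p = 0.0826). Ptgs2, the prostaglandin synthase COX-2, had a log2 fold change of 1.55 (SE 0.44, adjusted p = 0.128), and Nfkbiz, the inducible NF-κB cofactor IκBζ, one of 0.81 (SE 0.24, adjusted p = 0.134). The groups did not overlap for these 3 genes. A list of 12 dissociation and stress genes had the same direction in the same libraries, with 7 higher at an unadjusted p under 0.05 and a median of 1.76, and its part in the response genes was not tested. Without BrafYAP replicate 6 the count in the response list was 3 higher and 1 lower of 9, with a median of 0.37, whereas the receptor and inflammasome counts were again 4 and 5, all lower. In that fit, the shares of all genes higher at that p were 10.3% on deposited values and 9.42% on scaled reads. The shares lower were 8.14% and 11.5%. The liver acute-phase genes Saa1 and Saa2 had 0 reads in all 6 libraries.

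Of 12 adaptors and kinases, Irak4 was lower (log2 fold change −1.22, adjusted p = 0.174) and Irak3, an inhibitory member of that family, and Traf6 were higher in BrafYAP (2.12 and 1.09, adjusted p = 0.190 and 0.220) at an unadjusted p under 0.05, and the list's median was 0.26. Among 8 genes of mRNA decay the median was −0.28. Zc3h12a, the Regnase-1 nuclease that cleaves Il6 mRNA, had 1056, 661 and 996 reads in YAP and 396, 426 and 280 in BrafYAP (log2 fold change −1.01, SE 0.21, adjusted p = 0.0863). Zfp36l2, an RNA-binding protein of the tristetraprolin family, had a log2 fold change of 0.87 (SE 0.20, adjusted p = 0.0953), and Hnrnpd, which encodes AUF1, one of −0.49 (adjusted p = 0.481). Tristetraprolin itself (Zfp36) was abundant in all libraries at 12293 to 24061 reads, with a log2 fold change of −0.29 (adjusted p = 0.646).

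**Figure D4:**
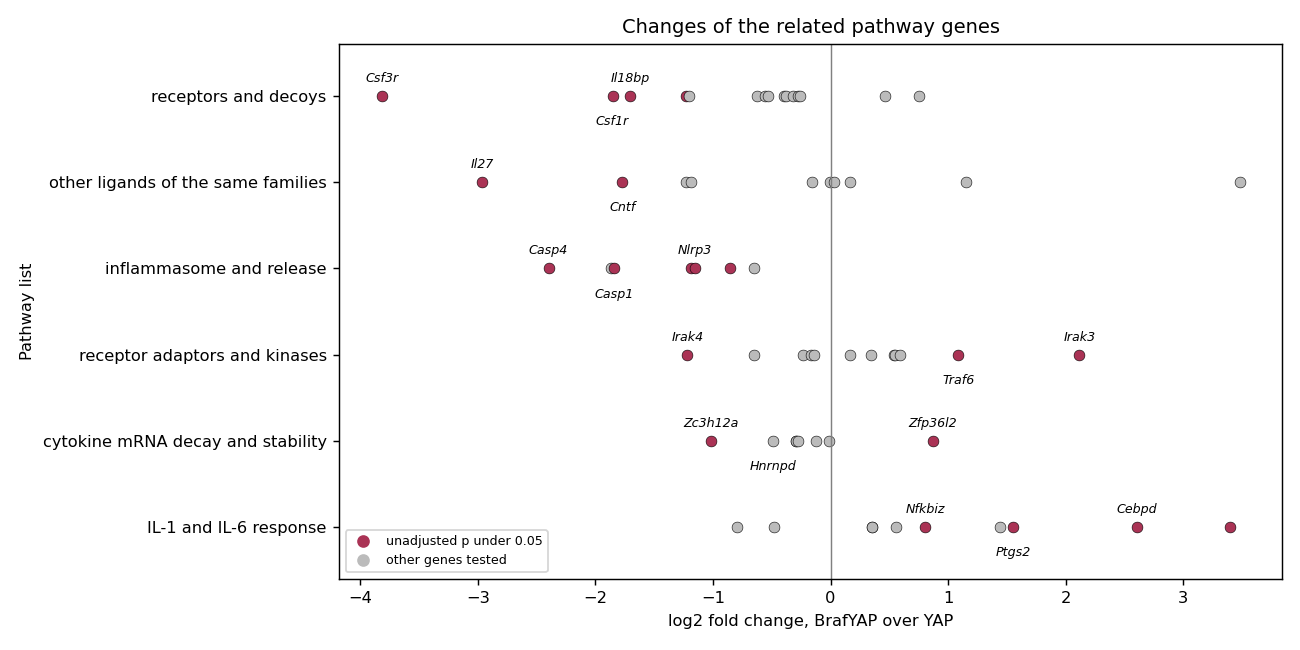
Each point is a tested pathway gene (1 gene is not shown), placed by its log2 fold change, BrafYAP over YAP, on log2(deposited value + 1) where its mean value is at least 1 and on log2(scaled reads + 1) otherwise. Red marks an unadjusted p under 0.05 in limma, and none passes the adjusted threshold; inflammasome genes lie on the negative side and the red response genes on the positive side.

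Genes of the dissociation and stress list were also mostly higher in BrafYAP. By the labels, cells of all 6 libraries had been digested for 1 hour before sorting. The 12 genes of that list summed to 4104 to 10081 exonic TPM in YAP and 12856 to 21325 in BrafYAP, and 7 of the 12 were higher in BrafYAP at an unadjusted p under 0.05. Over all genes, 10.7% were higher at that p on deposited values and 9.68% on scaled reads. Jun and Egr1 had log2 fold changes of 2.77 and 1.63 (adjusted p = 0.129 and 0.0863), while Fos had one of 0.34 (adjusted p = 0.543). Of the cytokines, Il33, Il6 and Csf2 had positive fold changes beside these. For the stress genes, handling and the mutant Braf, which activates MAPK signaling, cannot be told apart. The part of dissociation in the cytokine values was not tested.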

How the data were processed

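The 3 YAP and 3 BrafYAP libraries were grouped by their titles. Per the labels, SMART-Seq amplification took 12 cycles and library PCR 8, and sequencing was paired-end with reads of 50 nt. The labels were used where the paper's methods give 1 tumor per replicate, and for the age at dox, on which the methods match the labels and the results text does not.

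For alignment the authors used STAR 2.6.1d and mm10, and for quantification the E/M model of Partek with Ensembl 95 genes, and they deposited TPM with 0.0001 added. Low values multiplied by the genomic span (GENCODE M21) were within 0.05 of whole multiples of 1 step per library for 71.5 to 75.8% of values, against 21.7 to 24.4% with exonic length, so the deposited TPM appear divided by the span, introns included. Estimated reads are (value − 0.0001) × span / step, with 1 common step for scaled reads, and exonic TPM divide them by exonic length. They were available for the 34645 symbols found at 1 locus. Reads carry no molecular identifiers, so numbers of reads cover counting error only. Of the 6 columns, 0 were left unused.

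Since TPM are no counts, the main test was no count model, and voom on estimated reads was an alternative. Groups were compared with limma 3.58.1 in R 4.3.3 (lmFit, eBayes with trend), two-sided, without covariates, on log2(value + 1) for the 7319 genes with a mean of at least 1, and on log2(scaled reads + 1) for the 16834 genes with a mean of at least 10. P-values were Benjamini-Hochberg adjusted over all genes tested, with a threshold of 0.05, and the scripts were tested on simulated data. The labels do not tie tumors to animals, so p-values measure only the spread between these libraries. The fold changes on log2(value + 1) understate those of low genes.

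Named are all 10 members, of each pathway list the genes past the threshold or else up to 3 with the smallest unadjusted p, and markers at 0 or moving with a member, except that 1 gene of the ligand list is not reported here. Zfp36, Clcf1, Ctf1, Il1r1, Il1rl1, Il6ra, Il6st, Marco, Fos, Jun and Egr1 were named after their values were seen. The members and lists were chosen with earlier results of these data known. Motifs were searched in RefSeq windows (GRCm38.p6).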

Additional observations from a re-analysis of the deposited data

How the results depend on the processing

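The count of members past the threshold was 0 under every alternative run. These were pseudocounts of 0.1 and 0.0001, a raised or no minimum, quantile or median-ratio normalization, no trend, array weights, each library left out, the replicate block, exonic length, the length division undone, voom on the estimated reads, and a 2-fold minimum. The count of pathway genes past the threshold, 0, became 1 with quantile normalization, 13 with array weights, and 0 to 2 over the fits that each left out a library, the 2 without YAP replicate 2, with Zc3h12a among them. Shares over all genes moved too. Array weights called 20.6% of the 63 pathway genes and 19% and 11.2% of all genes on deposited values and scaled reads, quantile normalization 1.59% against 0.654% and 0.368%, and the fit without YAP replicate 2 called 3.17% against 6.39% and 0.0178%. Of 171 alternative fold changes of the 10 members, 164 kept their direction, and adjusted p ranged from 0.0875 to 0.984. The 7 that reversed were Il1a (0.18) and Il1b (0.13) with array weights, Lif (0.24) and Csf1 (0.31) with the replicate block, Il1b without YAP replicate 1, and Lif and Csf1 without BrafYAP replicate 6. Leaving out each library in turn gave −0.78 to 0.13 for Il1b, −0.53 to 0.046 for Lif and −0.85 to 0.23 for Csf1. The cause was not tested. Only replicate numbers 1 and 2 are shared. Deviations of same-numbered libraries from their group means had r = −0.05 and 0.06 across 7319 genes. Differently numbered pairs had r from −0.049 to 0.087, so these values cannot show whether the numbers mark a pairing. In the fit with the replicate block, YAP replicate 3 and BrafYAP replicate 6 each stood alone in a block. Its fold changes therefore rest on replicates 1 and 2 only, and little spread was left to test against. There 0 members and 0 pathway genes passed, and 0 of the 7319 and 0 of the 16834 genes tested, so this fit is weak as a check. Without YAP replicate 3, Csf3 fell below the minimum mean and has no value. At 13 to 64 estimated reads in 5 libraries for Il33 and 25 to 86 for Il6, depth limits what could be resolved for these genes.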
